A study of Oryctolagus cuniculus with 3 samples.

Results

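Serpins are a family of protease inhibitors and related proteins, and their transcripts were followed here through corneal epithelial differentiation in culture. Every gene whose name in the deposited tables begins with SERPIN was taken, which gave 29 of 20536 gene names, filed as 71 of 38696 coding sequences. The letter after SERPIN is the clade, and the 29 genes fall in 8 clades: 11 genes in clade B, 8 in A, 3 in E, 2 each in F and I, and 1 each in C, D and G. The rule reads the gene name, not a level.

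The cells were RCE1(5T5), a rabbit corneal epithelial line, sequenced as 1 library at each of 3 stages: non-differentiated on day 4, committed on day 6 and terminally differentiated on day 10. All 3 cultures grew on 3T3 cells, a mouse fibroblast line stopped from dividing with mitomycin C, which EDTA took off before the RNA was prepared. The medium of all 3 held fetal calf serum, EGF, insulin, transferrin, hydrocortisone, triiodothyronine, cholera toxin and adenine. Stage, day and library cannot be told apart with 1 library a stage, so no statistical test between stages was run, and brackets below give 95% counting intervals only.

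A serpin that inhibits proteases offers an exposed loop as bait; the protease cuts it, the serpin changes shape and the enzyme is trapped in a covalent complex. Most clades are secreted, whereas clade B serpins lack a classical signal peptide and act mainly inside the cell, many of them in stratified epithelia. Some members, such as SERPINB5 and SERPINF1, inhibit no protease. In the cornea the family is known for control of plasmin at the wounded surface and, through SERPINF1, for keeping the tissue free of vessels.

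The libraries held 10171693, 12582706 and 10899578 fragments on days 4, 6 and 10. Levels are counts scaled to a library of 1e6 fragments (CPM) after correction with TMM (trimmed mean of M values) factors. Differences are of log2(CPM + 1). The words rose and fell are kept for differences of 2-fold or more, among genes with 1 CPM or more in at least 1 library. Folds are ratios of CPM. Of 9 corneal epithelial markers in the tables, 6 rose and 0 fell from day 4 to day 10 (5 and 1 without TMM factors, and also in TPM, the authors' transcripts per 1e6, which are scaled by length). Of all 12818 measured genes 17.1% rose and 15.8% fell in that comparison. Without TMM factors the shares of all genes were 15% and 19%, and in TPM 11.2% and 23.9%. KRT12 had 0 fragments on day 4, and KRT3 and PAX6 were present on all 3 days. Of 24 fibroblast and feeder markers in the tables, 23 were measured, LUM was at 0, and their summed level was 8539.4, 5213.4 and 3220.0 CPM on days 4, 6 and 10. ACTA2 (2362.0 CPM) and VIM (1527.2 CPM) held much of the day 4 sum. THY1 went the other way, from 19.6 CPM on day 4 to 76.9 on day 10. The feeders were mouse cells and the build a rabbit one, so these markers cannot tell feeder RNA from rabbit RNA. Bulk RNA cannot tell fewer cells of a type from less RNA per cell.

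Of the 29 serpin genes, 18 reached 1 CPM and 13 reached 10 CPM in at least 1 library. Among the 11 genes that stayed below 1 CPM, 6 had 0 fragments in all 3 libraries and 5 had at most 2 fragments in any library. SERPINA6 was the measured member with the lowest peak, at 1.49 CPM, and the highest level among those below the line was 0.188 CPM. No fragment in a library was taken to allow up to 3, which is 0.275, 0.249 and 0.283 CPM on days 4, 6 and 10. Of the 18 measured genes, 12 were at 1 CPM or more on all 3 days and 3 in 1 library only (SERPINA3, SERPINA5 and SERPINA6), and a gene measured through 1 day alone has to differ between days.

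On days 4, 6 and 10 the serpins summed to 1094.0, 680.1 and 867.3 CPM. Their sum was 1.61-fold lower on day 6 than on day 4 [1.56 to 1.65] and 1.28-fold higher on day 10 than on day 6 [1.24 to 1.31]. The sum was lowest on day 6 and did not regain its day 4 level by day 10, with each of 4 scalings tried. Without SERPINB2 the sum was 899.5, 674.8 and 860.2 CPM, a log2 ratio of -0.06 between day 10 and day 4, against -0.33 with it. That ratio depends on the scaling: in TPM it was -0.39 without SERPINB2 and -0.66 with it, and without TMM factors -0.2 and -0.47.

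Per length, a different one of the 29 genes led on each day. SERPINB5 at 225.5 TPM led on day 4, followed by SERPINB10 at 210.6, SERPINB2 at 162.4 and SERPINB6 at 136.5 TPM. On day 6 SERPINB10 led with 129.8 TPM, ahead of SERPINB6 at 110.1 and SERPINB5 at 82.1 TPM. On day 10 SERPINB11 led with 166.3 TPM, ahead of SERPINB6 at 122.7 and SERPINB10 at 80.4 TPM. SERPINB2 went from 17.6% of all serpin TPM on day 4 to 0.729% on day 6, and SERPINB11 went from 0.616% on day 4 to 28.3% on day 10.

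**Figure D1:**
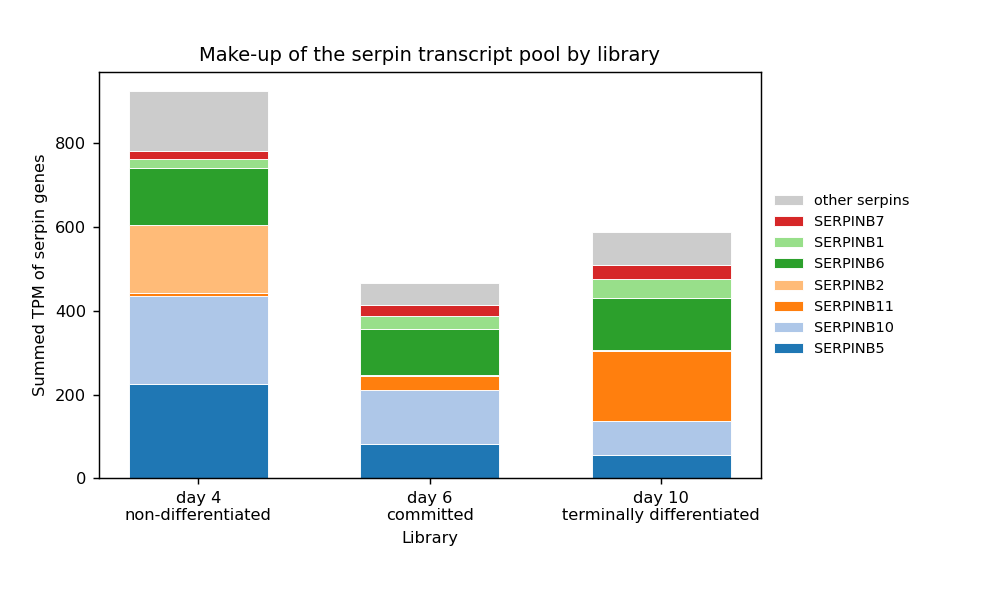
Stacked bars of the deposited TPM of serpin genes in each of the 3 libraries, 1 bar a day, with 7 genes drawn separately and the other serpins in grey. The bar is 924.8 TPM high on day 4, 466.1 on day 6 and 587.2 on day 10, with SERPINB2 wide on day 4 only and SERPINB11 widest on day 10.

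Between day 4 and day 6, 2 of the 18 measured serpin genes rose, where 8.06% of all 12818 measured genes rose. In the same comparison 5 fell, where 6.73% of all genes fell. Between day 6 and day 10, 5 rose and 0 fell, with 8.25% and 7.1% of all genes doing so. From day 4 to day 10, 7 rose and 5 fell, with 17.1% and 15.8% of all genes. In TPM the balance of that comparison turned, with 5 rising and 6 falling, where 11.2% and 23.9% of all genes did so. The median difference of the 18 was 0.03, 0.36 and 0.44 in these comparisons, while for all measured genes it was 0.0, -0.01 and 0.01. The comparisons share libraries, and the 18 include genes measured only through the day on which they were high. SERPINF1 at -1.07 was the nearest inside the line for a fall from day 4 to day 6, and SERPINB13 at -0.97 the nearest outside it.

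**Figure D2:**
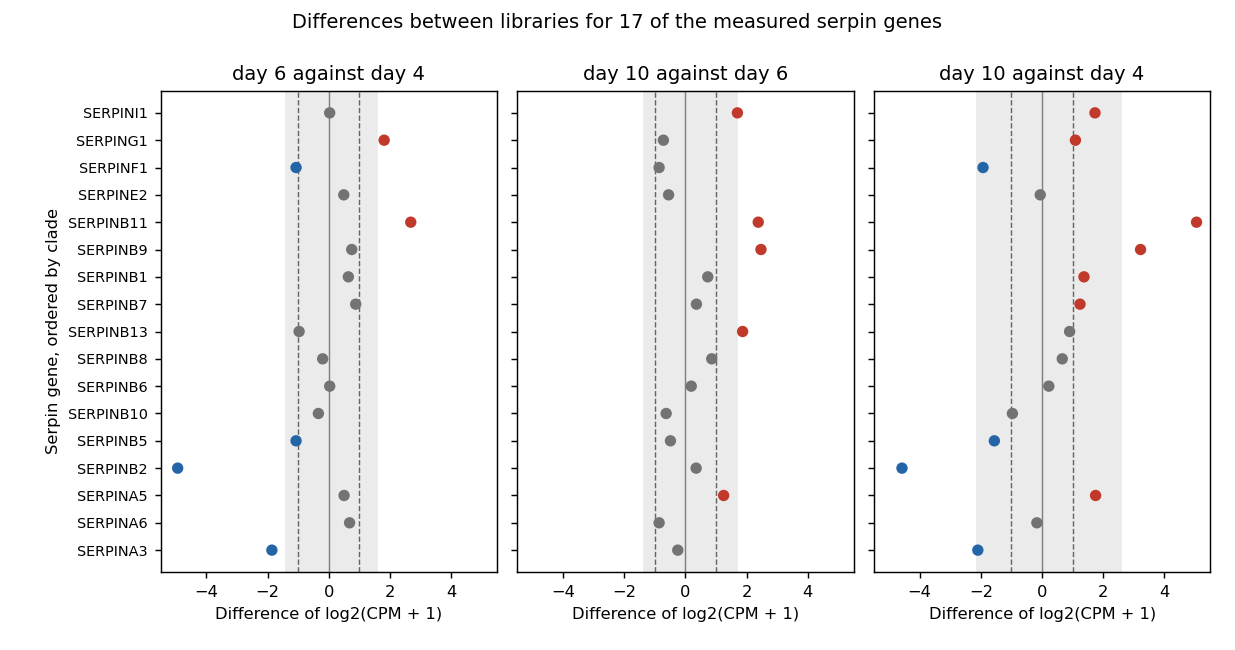
Difference of log2(CPM + 1) for 17 of the 18 measured serpin genes in each comparison, ordered by clade; red points rose, blue points fell, grey points did neither, dashed lines mark 2-fold and the grey band spans the central 95% of all measured genes. SERPINB2 at -4.94 and SERPINB11 at 2.68 lie far outside the band of -1.4 to 1.57 from day 4 to day 6.

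The clades differed in the direction of their shares of serpin fragments, a pool whose own size changed between days. Clade B, the intracellular serpins, made up 82.2% of serpin fragments on day 4 [81.5 to 82.9], 87.4% on day 6 [86.6 to 88.1] and 90.2% on day 10 [89.6 to 90.8]. Clade F went from 6.14% [5.72 to 6.59] to 4.63% [4.19 to 5.11] and 1.94% [1.67 to 2.25]. Clade I went the other way, from 0.487% [0.37 to 0.629] to 0.805% [0.623 to 1.02] and 2.3% [2.01 to 2.63]. Clades A and G stayed under 1% on all 3 days, and the clade C and D genes had no fragment.

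In levels, clade F was 3.98-fold lower on day 10 than on day 4 [3.38 to 4.72], with a drop at each step. Clade I held fragments of SERPINI1 alone, at 5.32, 5.47 and 20.0 CPM. Its larger share on day 6 than on day 4 went with a level ratio of 1.03 [0.712 to 1.49]. Clade B was at 899.2, 594.2 and 782.4 CPM, so its growing share went with a level below that of day 4. Without SERPINB2 it was at 704.6, 588.8 and 775.2 CPM. That sum had a log2 ratio of 0.14 between day 10 and day 4, which was 0.0 without TMM factors and -0.25 in TPM, so its direction depends on the scaling.

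SERPINB2, or plasminogen activator inhibitor 2, blocks urokinase and is known from keratinocytes and macrophages. From 2120, 65 and 76 fragments it was at 194.6, 5.39 and 7.16 CPM on days 4, 6 and 10. It was high on day 4 alone, 36.1-fold lower on day 6 [28.2 to 46.9] and 27.2-fold lower on day 10 than on day 4 [21.6 to 34.6]. Ordered by the size of the fall from day 4 to day 6, SERPINB2 was number 1 of the 12818 measured genes, and from day 4 to day 10 it was number 6. Between day 6 and day 10 its interval included no change (1.33-fold higher [0.941 to 1.88]).

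SERPINE2, protease nexin 1, which blocks thrombin and plasminogen activators, was at 16.2, 23.1 and 15.4 CPM. It peaked on day 6, 1.43-fold above day 4 [1.18 to 1.73], and neither rose nor fell in any comparison. SERPINE3 had at most 2 fragments a library.

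Neither plasminogen activator fell by 2-fold. PLAU, urokinase, was at 411.1, 299.1 and 567.3 CPM, 1.37-fold lower on day 6 than on day 4 [1.32 to 1.44] and 1.9-fold higher on day 10 than on day 6 [1.82 to 1.98]. PLAT, tissue plasminogen activator, was at 52.2, 90.5 and 274.9 CPM and rose 5.26-fold from day 4 to day 10 [4.81 to 5.77]. PLAUR, the urokinase receptor, fell 7.41-fold from day 4 to day 6 [6.39 to 8.63] and was at 14.4 CPM on day 10. LRP1, which clears serpin and protease complexes, was at 330.7, 259.7 and 332.8 CPM. Of 10 genes of a plasminogen activation list 7 were measured. From day 4 to day 6, 1 fell and 0 rose, where 6.73% and 8.06% of all genes did so. From day 6 to day 10, 1 rose and 0 fell, with 8.25% and 7.1% of all genes.

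Per length, SERPINB2 had 162.4 TPM on day 4, against 305.8 TPM for its target PLAU. On day 6 it had 3.4 against 171.8 TPM, and on day 10 it had 4.4 against 321.6 TPM. SERPINB2 was thus within 2-fold of PLAU on day 4 and far below it on the later days, in transcripts, not in protein or activity. PLG, the plasminogen gene, had 0 fragments in all 3 libraries.

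**Figure D3:**
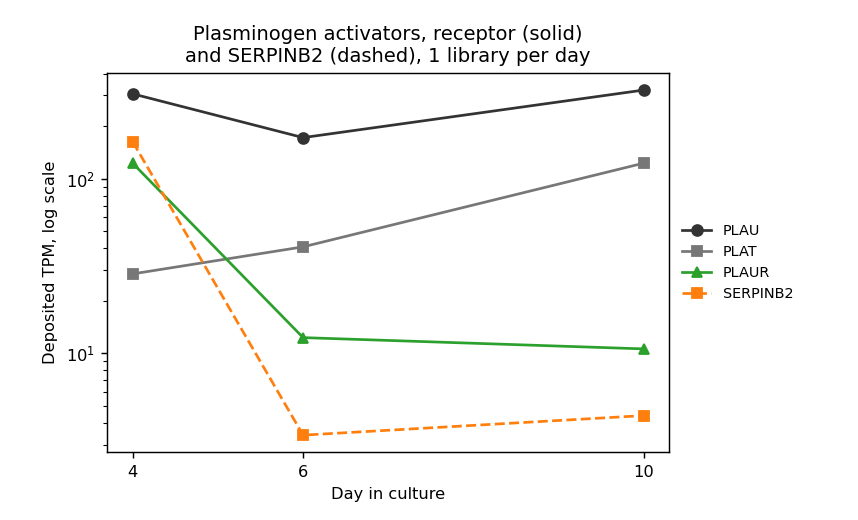
Deposited TPM on a log axis against day in culture for the activators PLAU and PLAT and the receptor PLAUR (solid lines) and the inhibitor SERPINB2 (dashed line), 1 library a day. SERPINB2 and PLAUR drop between day 4 and day 6, while PLAT goes from 28.5 to 122.7 TPM between day 4 and day 10.

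Genes known to be induced together with SERPINB2 by growth factors and stress were set beside it. From day 4 to day 6, 9 of 19 measured fell and 2 rose (all genes 6.73% and 8.06%), with a median of -0.32. In the next interval 4 fell and 3 rose (all genes 7.1% and 8.25%), with a median of 0.17. FOSL1, an AP-1 transcription factor, fell 20.2-fold in the first interval [15.0 to 27.8] and CYR61, a matricellular protein, 15.0-fold [11.5 to 19.9]. PTGS2, the inducible cyclooxygenase, went from 111.4 to 15.2 CPM and was at 38.3 CPM on day 10. TGFBI, a matrix protein induced by TGF-beta, rose 6.95-fold [6.43 to 7.51]. Of the 23 measured fibroblast and feeder markers, 9 fell and 0 rose in the first interval (17 fell in TPM and 15 without TMM factors). The share of all genes that fell there was 13.2% in TPM and 9.49% without TMM factors. THBS1 is on both lists. The part of these markers in the fall of SERPINB2 was not tested.

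SERPINB11 is a clade B serpin whose human gene often carries changes that abolish inhibition. From 71, 567 and 2642 fragments it was at 6.52, 47.0 and 248.8 CPM. It was higher at each step, 7.22-fold from day 4 to day 6 [5.63 to 9.37] and 5.29-fold from day 6 to day 10 [4.83 to 5.8]. Over the whole interval it rose 38.2-fold [30.2 to 49.1] and stood at place 32 of the 12818 measured genes by size of rise. Its fragments were spread over 8 coding sequences, whose counts on day 10 lay between 138.0 and 362.1.

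SERPINB9 inhibits granzyme B and is best known from cytotoxic lymphocytes and immune-privileged tissue. It had 9, 25 and 170 fragments, or 0.826, 2.07 and 16.0 CPM. It rose 7.72-fold from day 6 to day 10 [5.06 to 12.3] and 19.4-fold from day 4 to day 10 [9.97 to 43.1]. Among myeloid and lymphoid markers TYROBP, FCER1G and CD3E were at 0 in all libraries and PTPRC was at 1.47, 1.82 and 1.51 CPM. CD68, which lysosomes of other cells also carry, went from 5.6 to 68.0 CPM; its part in the rise was not tested.

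SERPINB1 protects cells from neutrophil elastase and cathepsin G. It was at 20.0, 31.7 and 53.2 CPM, higher at each step, and rose 2.66-fold from day 4 to day 10 [2.27 to 3.12]. SERPINB7, an epidermal serpin whose loss causes a form of palmoplantar keratosis, was at 19.7, 37.2 and 48.1 CPM and rose 2.44-fold over the same interval [2.08 to 2.87]. Both calls were lost in TPM, where the differences were 0.97 for SERPINB1 and 0.86 for SERPINB7. In TPM the median of all measured genes itself moved to -0.28 from day 4 to day 6 and to -0.29 from day 4 to day 10.

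SERPINB13, an inhibitor of the lysosomal cathepsins L and K, dipped on day 6. It was at 11.2, 5.22 and 21.8 CPM, 2.14-fold lower on day 6 than on day 4 [1.57 to 2.95]. On the scale with 1 CPM added this was -0.97, just short of the line; without TMM factors it was -1.11, in TPM -1.23 and with 0.1 added -1.09. It then rose 4.16-fold from day 6 to day 10 [3.14 to 5.59]. SERPINB8, an inhibitor of furin, stayed between 0.746 and 2.17 CPM, and SERPINB12 had at most 2 fragments a library.

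SERPINB5, or maspin, is an epithelial serpin without inhibitory activity, named for its loss in mammary tumours. It was at 253.8, 120.6 and 85.4 CPM, lower at each step. It fell 2.11-fold from day 4 to day 6 [1.97 to 2.24] and 2.97-fold from day 4 to day 10 [2.76 to 3.21]. SERPINB10, or bomapin, which was described in blood-forming cells, was at 238.5, 188.5 and 121.1 CPM. It too was lower at each step, 1.97-fold over the whole interval [1.84 to 2.11]. This difference of -0.97 lay just outside the line; it was -1.11 without TMM factors, -1.38 in TPM and -1.02 with read counts.

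SERPINB6, which inhibits cathepsin G and trypsin-like enzymes inside cells, stayed within 2-fold in each comparison. Its levels were 152.9, 155.8 and 178.4 CPM, and it was 1.17-fold higher on day 10 than on day 4 [1.09 to 1.25]. In TPM the order differed, with 136.5, 110.1 and 122.7, so no direction is given for it.

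**Figure D4:**
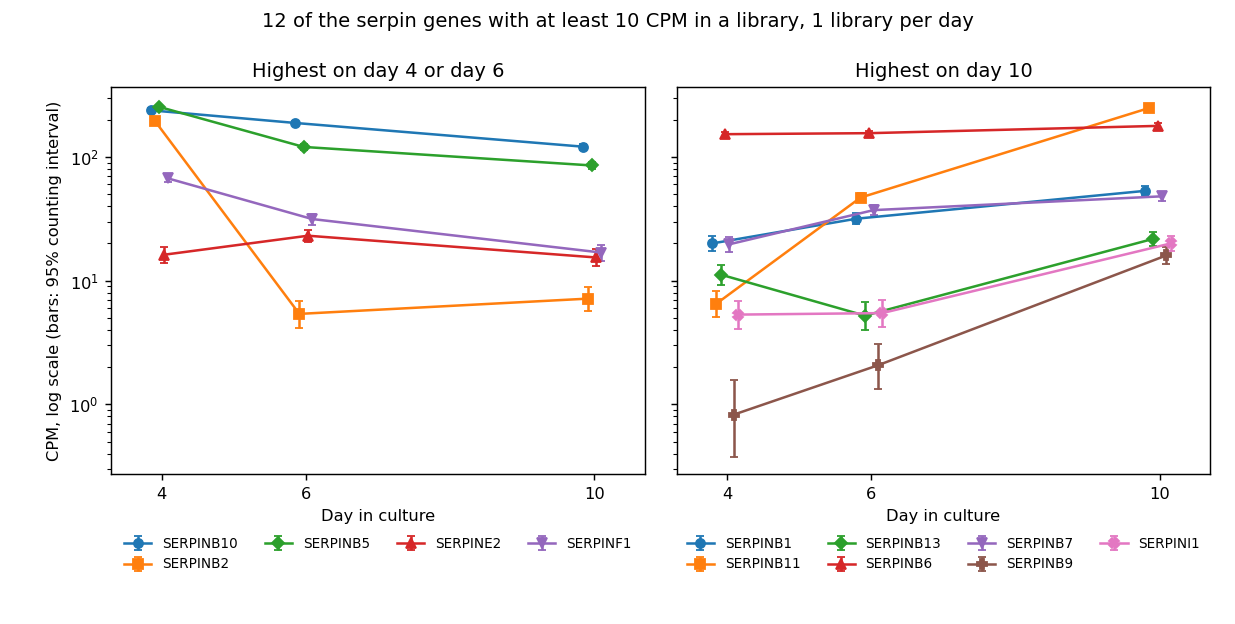
CPM on a log axis against day in culture for 12 of the 13 serpin genes that reached 10 CPM; bars are exact 95% Poisson intervals and cover counting error only. On the left are 4 genes highest on day 4 and SERPINE2, highest on day 6; on the right are the 7 genes highest on day 10, with SERPINB11 climbing from 6.52 to 248.8 CPM.

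Of the 13 genes at 10 CPM or more, 6 were higher in CPM at each step (SERPINB1, SERPINB6, SERPINB7, SERPINB9, SERPINB11 and SERPINI1) and 3 were lower at each step (SERPINB5, SERPINB10 and SERPINF1). SERPINB2 and SERPINB13 were lowest on day 6, and SERPINE2 was highest there. For SERPINB6 and SERPINI1 the interval of the step from day 4 to day 6 included no change, and its direction was the other way in TPM and without TMM factors (-0.31 and -0.13 for SERPINB6, -0.24 and -0.1 for SERPINI1).

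Gene order was taken from the RefSeq annotation of another rabbit assembly (mOryCun1.1), used here for names and order only. In it, 8 of the 11 clade B genes form a run of neighbours. The order is SERPINB8, SERPINB10, SERPINB2, SERPINB7, SERPINB11, a gene without a symbol (LOC100339150), SERPINB13, SERPINB12 and SERPINB5. Adjacent genes differed in the size of their changes from day 4 to day 6, and some also in direction. SERPINB8, SERPINB10 and SERPINB2 changed by -0.2, -0.34 and -4.94. Next in order, SERPINB7, SERPINB11 and LOC100339150 changed by 0.88, 2.68 and 2.22. SERPINB13 and SERPINB5 changed by -0.97 and -1.07. SERPINB11 rose in both intervals, and LOC100339150 beside it had 0, 44 and 17 fragments. With its 0 set at 3 fragments, that gene was 13.3-fold higher on day 6 than on day 4, and no name is given to it here. SERPINB6 and SERPINB1 are adjacent on another chromosome, where SERPINB9 lies apart from them with other genes between. SERPINB9, SERPINB6 and SERPINB1 had differences of 3.22, 0.22 and 1.37 from day 4 to day 10.

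**Figure D5:**
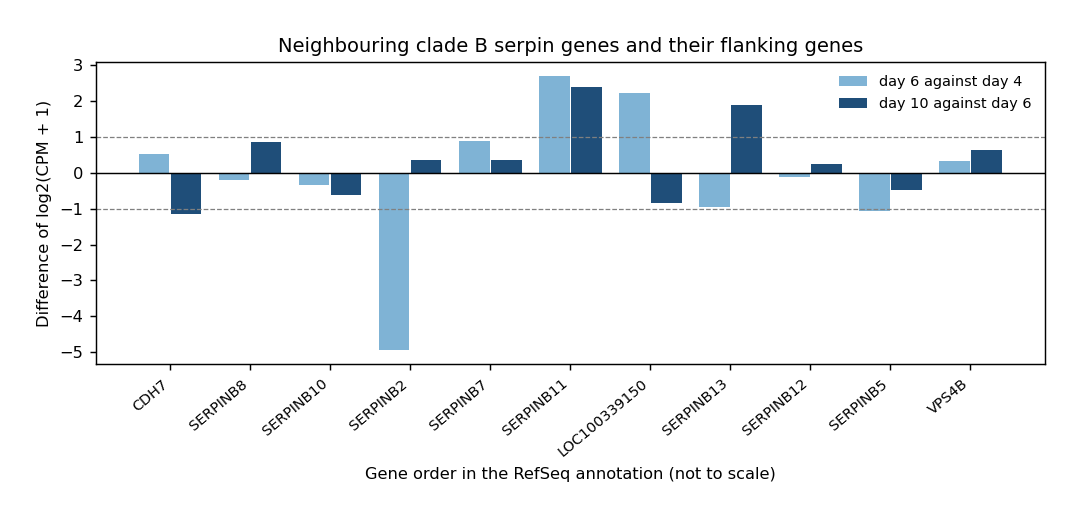
Difference of log2(CPM + 1) in the 2 successive intervals for the run of clade B genes and the gene on each side, in RefSeq order and not to scale; dashed lines mark 2-fold. SERPINB2 has the deepest bar, -4.94 from day 4 to day 6, between SERPINB10 at -0.34 and SERPINB7 at 0.88.

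SERPINF1, or pigment epithelium-derived factor, is a secreted serpin that inhibits vessel growth and no protease. It was at 67.1, 31.5 and 16.9 CPM, lower at each step. It fell 2.13-fold from day 4 to day 6 [1.88 to 2.42], a call lost with 5 CPM added (-0.98), and 3.98-fold from day 4 to day 10 [3.37 to 4.71]. Its neighbour SERPINF2, the plasmin inhibitor, had 1 fragment on day 4 and 0 on the other days. From day 4 to day 10, 20 of 23 measured fibroblast and feeder markers fell and 1 rose (all genes 15.8% and 17.1%). Their median was -1.78, against -1.93 for SERPINF1. The part of these markers in the fall of SERPINF1 was not tested.

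SERPINI1, or neuroserpin, inhibits tissue plasminogen activator and is known from neurons. It was at 5.32, 5.47 and 20.0 CPM. The ratio of day 6 to day 4 was 1.03 [0.712 to 1.49], and the gene was 3.65-fold higher on day 10 than on day 6 [2.76 to 4.88]. PLAT, its target, rose 3.04-fold in that interval [2.83 to 3.26]. SERPINI2 had no fragment.

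SERPING1, the C1 inhibitor of the complement cascade, which interferon can induce, had 1, 34 and 14 fragments. It was at 0.0918, 2.82 and 1.32 CPM, 30.7-fold higher on day 6 than on day 4 with a counting interval of 5.15 to 1248.9. This fold rests on 1 fragment on day 4. The call was lost with 5 CPM added (0.62), a constant above its highest level, which lowers the difference by construction. From day 4 to day 10 SERPING1 rose 14.4-fold [2.19 to 607.5], a call also lost with 5 CPM added (0.31). From day 4 to day 6 its targets C1R and C1S were lower, C1R by 3.85-fold [2.91 to 5.15] and C1S by 3.59-fold [2.66 to 4.9].

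Clade A holds mostly serpins that the liver secretes into plasma, and it was nearly silent, with 64, 33 and 36 fragments in all. SERPINA3, the antichymotrypsin of the acute phase, had 58, 9 and 5 fragments and fell 7.13-fold from day 4 to day 6 [3.51 to 16.4]; with 5 CPM added the difference was -0.85. SERPINA5, the protein C inhibitor, had 0, 5 and 25 fragments. It rose 5.68-fold from day 6 to day 10 [2.14 to 19.0] and was at least 8.55-fold higher on day 10 than on day 4, with 0.44 and 0.56 as the differences when 5 CPM was added. For SERPINA5 the step from day 6 to day 10 was 0.99 with the highest coding sequence alone. SERPINA6, the carrier of cortisol, had 6, 18 and 4 fragments.

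The liver markers ALB, APOA1, TTR and FGB were at 0 in all 3 libraries. So were SERPINA4, SERPINA7, SERPINA11, SERPINI2, SERPINC1 (antithrombin) and SERPIND1 (heparin cofactor II). SERPINA9 and SERPINA12 had at most 2 fragments a library. AGT, a serpin by structure under another symbol, had 1 fragment, on day 10.

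SERPINH1, the collagen chaperone HSP47, is filed in the tables as LOC100009353 and falls outside the name rule. Its RefSeq symbol was taken from the gene identifier. It was at 172.3, 175.0 and 86.9 CPM. The ratio of day 6 to day 4 was 1.02 [0.954 to 1.08], and the gene was 2.01-fold lower on day 10 than on day 6 [1.86 to 2.18]. Per length it was at 258.8, 202.6 and 102.9 TPM, above each of the 29 members on days 4 and 6, and below SERPINB11 and SERPINB6 on day 10. Of 24 measured genes for collagens and collagen folding, 3 fell and 0 rose from day 4 to day 6 (8 fell in TPM, 6 without TMM factors). Of all genes 6.73% fell and 8.06% rose in that step, with 13.2% falling in TPM and 9.49% without TMM factors. Over the whole interval 12 of the 24 fell and 2 rose (all genes 15.8% and 17.1%), with a median of -0.89. Of the 27 genes listed 7 are also fibroblast markers, and their part was not tested. COL4A1, a basement membrane collagen, fell 3.21-fold in the first step [3.02 to 3.42], and COL6A2 was at 282.5, 154.8 and 38.1 CPM. COL7A1, the anchoring fibril collagen, rose 3.23-fold by day 10 [2.94 to 3.55]. Of 13 heat shock genes 0 rose and 6 fell from day 4 to day 10 (all genes 17.1% and 15.8%). In TPM 8 of them fell, with 23.9% of all genes. HSPD1, a mitochondrial chaperonin, was 4.28-fold lower [4.11 to 4.45].

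From day 4 to day 6, 2 of 20 measured proteases that serpins can target rose and 2 fell (median 0.1; 1 and 2 in TPM). Of all genes 8.06% rose and 6.73% fell in that step (4.53% and 13.2% in TPM). Of the same 20, 12 rose and 3 fell from day 4 to day 10 (median 1.41, all genes 0.01). The shares of all genes were 17.1% and 15.8%. From day 6 to day 10, 9 of the 20 rose and 2 fell (median 0.8), with 8.25% and 7.1% of all genes. KLK6, a serine protease, went from 0.642 to 38.3 CPM between day 4 and day 10, 59.7-fold higher [28.7 to 149.4]. CTSH, a lysosomal cathepsin, rose 14.1-fold [10.8 to 18.7]. CTSS, a cathepsin of antigen processing, was at 0.551, 1.41 and 16.5 CPM. In TPM 10 rose and 5 fell from day 4 to day 10 (all genes 11.2% and 23.9%).

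Inhibitors from other families rose alongside. Of 15 measured, 11 rose and 1 fell from day 4 to day 10 (median 2.13), against 7 and 5 of the 18 serpins. The shares of all genes were 17.1% and 15.8%. CSTA, a cytosolic cathepsin inhibitor, was at 7.16, 32.0 and 161.3 CPM. WFDC2, a secreted protein with whey acidic protein domains, was at 2.84, 83.5 and 1071.4 CPM. A2ML1, the inhibitor that fell, was at 2.75, 4.15 and 0.565 CPM. In TPM 8 inhibitors rose and 0 fell (all genes 11.2% and 23.9%). These list counts describe these libraries, and no difference between the lists was tested.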

How the data were processed

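The data are RNA sequencing of 3 libraries from rabbit RCE1(5T5) cells, 1 a stage. Per the labels' protocols, RNA was extracted with Trizol and libraries were made with a TruSeq RNA kit. The deposited tables give, per the file headers, fragment counts and read counts per coding sequence; their values are expected counts, many of them fractional, made by the authors before deposit. The tables also hold a raw transcript count, a coverage signal made by the authors, and the authors' FPKM and RPKM, which were not used. The deposited TPM values were used to compare levels between genes. Per the submitters' processing notes, the build used was OryCun2.0. Aligner, counter and strand setting: not given in the sources used here. Antisense or overlapping genes, and fragments shared between similar serpins, cannot be separated.

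Fragment counts were summed per gene name and rounded. Levels (CPM) were scaled in R 4.3.3 by edgeR 4.0.16, whose TMM factors were 1.071, 0.958 and 0.974. The design assumed whole counts, and expected counts were rounded for it. A gene was measured at 1 CPM or more in at least 1 library (12818 genes). A difference is that of log2(CPM + 1), called at 2-fold; adding 1 understates the change of low genes. Intervals of folds and shares are exact (Clopper-Pearson) and of levels exact Poisson, from scipy 1.17.1, at 95%. They cover counting error only, since PCR copies are not independent molecules. Where a library had 0 fragments, a fold is set against 3 fragments per library and leaves out the counting error of the other library. With 1 library a stage no test across genes was possible. The calling was also run on simulated counts with Poisson error and changes of 4-fold. That setting cannot check calls near 2-fold or variation between cultures, so no conclusion is drawn from it. Alternatives were other scalings (no factor, DESeq2 1.42.0 size factors, TPM), filters, added constants, the highest coding sequence, read counts and a 4-fold line.

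Every SERPIN gene is a member; those at 10 CPM or more in a library are described with all values, except that 1 is not reported here and enters only the counts and sums over members, and of each list up to 2 risers and 2 fallers. Other genes of a list that are named, and LOC100339150, were chosen after their values were seen. The members and lists were chosen with earlier results of these data known. Of 29 members 26 have their symbol in the RefSeq table.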

Additional observations from a re-analysis of the deposited data

How the results depend on the processing

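With 1 library a stage, culture, day and library preparation cannot be told apart, and intervals hold counting error only. No paired analysis was possible because each stage has 1 library, and no library could be left out. Genes with few fragments, such as SERPINA3, SERPINA5, SERPINA6, SERPINB8 and SERPING1, took part in several of the changes below. The number of serpin genes that rose from day 4 to day 6 (2) became 1 with a minimum of 5 CPM, which left 14 members measured. It became 5 with 0.1 CPM added and 1 with 5 CPM added. The share of all genes that rose there (8.06%) became 8.55% with that minimum and 12.1% with 0.1 CPM added. The number that fell there (5) became 3 with 5 CPM added. The number that fell from day 6 to day 10 (0) became 2 with 0.1 CPM added and 1 with SERPINH1 counted as a member, a setting chosen after seeing the data. With 0.1 CPM added 10.2% of all genes fell in that step, against 7.1%. With a 4-fold line, 1 rose and 2 fell from day 4 to day 6, 2 rose from day 6 to day 10, and 2 rose and 2 fell from day 4 to day 10. Shares of all genes with a 4-fold line or 5 CPM added are not given here, so those counts have no background beside them. The clade B share on days 4, 6 and 10 was 85.7%, 89.9% and 91.2% in TPM and 73.9%, 82.6% and 83.4% from the highest coding sequence alone. With read counts it was 85.2%, 89.2% and 90.7%. The share grew from day to day under each of these. A stricter line or filter and a larger added constant lower counts by construction. For the clade B shares the cause was not tested. Of 486 differences of single members under the other settings, 453 moved by less than their counting interval, 33 by more, and 0 of those called reversed. The 453 overstate stability: differences under another minimum on CPM could not move, since a filter leaves a difference as it is. Where a library had 0 fragments there was no interval, and any move was counted as less. SERPINA5 from day 4 to day 6 is such a case, at 0.5 and, with 0.1 CPM added, 2.36. Without TMM factors the median of all measured genes moved to -0.14 from day 4 to day 6 and -0.11 from day 4 to day 10.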
